A study of Rattus norvegicus with 15 samples.

Results

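S100a8, S100a9, Mmp8 and Mmp9 are transcripts of products that neutrophils carry in quantity, and they are described here across rat whole blood taken after experimental deep venous thrombosis, the clotting of a deep vein. They were chosen by feature ID and are 4 of the 17599 features of the deposited table: ENSRNOG00000011557 (S100a8), ENSRNOG00000011483 (S100a9), ENSRNOG00000009907 (Mmp8) and ENSRNOG00000017539 (Mmp9). All 4 were present and all 4 passed the filter on low values. The pairing of IDs with symbols comes from the rule that chose the genes, since neither the files nor the reference table pair them. The blood came from male Sprague-Dawley rats, an outbred stock, 6 to 8 weeks old and of 250 to 300 g. Each of the 5 groups held 3 libraries, from rats 1 h, 6 h, 12 h or 72 h after modelling and from a sham group labelled 0 h. The labels do not describe the sham operation or the way the clot was made. The titles of the 9 libraries of sham, 1 h and 72 h carry A&B and those of the 6 of 6 h and 12 h carry C, called the title label below, and the labels do not say what it marks. Time and title label therefore cannot be told apart wherever 6 h or 12 h is set against sham, 1 h or 72 h. Replicates are numbered without naming animals, so p-values measure only how far these samples spread, and that spread may be technical. The question is how these transcripts differ in blood between sham and each time after modelling.

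S100A8 and S100A9 are small calcium-binding proteins that join into calprotectin, a major soluble protein of the neutrophil cytosol that binds metal ions and acts as an inflammatory signal outside the cell. MMP8, the neutrophil collagenase, and MMP9, gelatinase B, are zinc proteases stored in neutrophil granules that cut collagens and other matrix proteins. Neutrophils enter a venous clot early and take part in its growth and its later resolution, and their granule genes are read mostly during maturation in the marrow. In bulk blood, fewer cells of a type and less RNA per cell cannot be told apart.

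S100a8 and S100a9 are next to each other on a single chromosome in the RefSeq gene table (GRCr8 assembly), with 0 protein-coding genes listed between them. RefSeq start regions (GRCr8) were matched by symbol for 2 of the 4 genes, S100a9 and Mmp8, 1 from each functional pair. They are shown because each gene's values followed those of its partner, and they give the 250 bases before the annotated start, 5′ to 3′ on the gene's strand, with motif matches in capitals. S100a9 lies at chr2:178490623-178490872 on the minus strand and Mmp8 at chr8:13008640-13008889 on the plus strand.
S100a9: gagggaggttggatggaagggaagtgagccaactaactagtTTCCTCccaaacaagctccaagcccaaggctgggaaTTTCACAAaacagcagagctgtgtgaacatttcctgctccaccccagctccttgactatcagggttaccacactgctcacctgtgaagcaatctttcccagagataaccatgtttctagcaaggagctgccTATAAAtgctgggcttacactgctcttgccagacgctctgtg
Mmp8: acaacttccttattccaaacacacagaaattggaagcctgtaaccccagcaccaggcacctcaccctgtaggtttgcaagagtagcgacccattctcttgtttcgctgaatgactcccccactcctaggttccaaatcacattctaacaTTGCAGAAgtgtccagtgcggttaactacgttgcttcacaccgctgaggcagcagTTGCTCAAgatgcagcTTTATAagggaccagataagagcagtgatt
Motifs were searched on both strands. The C/EBP pattern TTNNGNAA, for a family of factors used in granulocyte development, matched 1 time before S100a9 and 2 times before Mmp8, and 37.2% of all 33469 such windows hold it. The PU.1 core GAGGAA, for a factor of myeloid cells, matched 1 time before S100a9 and 0 times before Mmp8, and 23.3% of windows hold it. The TATA box TATAAA matched 1 time before each, on the gene's strand at 42 to 37 bases before the S100a9 start and on the other strand at 30 to 25 bases before the Mmp8 start (12.9% of windows). The AP-1 pattern TGANTCA matched 0 times in either window (6.34% of windows). The matches do not overlap each other and are descriptions of letters only.

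The deposited values are reads per feature divided by 1 factor per library, called normalised read counts below. The libraries held 29.2 to 43.3 M recovered reads (M, mega), and 4.67 to 7.65 M of these lay outside 5 dominant features. The 4 genes rested on between 40 reads (Mmp9, 72 h replicate 1) and 28828 reads (S100a9, 12 h replicate 3). A pair of libraries stood apart within their groups: sham replicate 2 was the highest sham library and 12 h replicate 3 the highest 12 h library for each of the 4 genes. The latter also had the largest library factor, 2.67. Within groups, the log2 value went up by 0.42 (S100a8), 0.55 (S100a9), 0.74 (Mmp8) and 0.70 (Mmp9) per unit of log2 factor, against a median of 0.21 over all features tested. Fits with the factor as a term are given below for part of the comparisons. Markers of neutrophils and of other blood cells could not be looked up, because the IDs are not paired with names.

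S100a8 was low in every library at 1 h and 72 h and high in every library at 6 h and 12 h. Its normalised read counts were 632, 2083 and 615 in sham replicates 1 to 3. At 1 h they were 324, 232 and 278, and at 72 h 221, 396 and 295. At 6 h they were 1441, 827 and 1206, and at 12 h 1893, 1179 and 3009. All 6 libraries at 1 h and 72 h lay below all 3 sham libraries, while 6 h and 12 h overlapped sham. Ordered by mean, the groups ran from 278 ± 46.3 at 1 h through 304 ± 87.9 at 72 h, 1110.2 ± 843 in sham and 1158 ± 309.7 at 6 h to 2027 ± 923 at 12 h (SD, n = 3), and each neighbouring pair overlapped except 72 h and sham.

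S100a9, the partner of S100a8, was also low at 1 h and 72 h and had its highest mean at 12 h, but its 6 h mean lay below that of sham. Its normalised read counts were 1889.8, 5617 and 2496 in sham. At 1 h they were 1153, 718 and 966, and at 72 h 769.9, 1458 and 1218. At 6 h they were 2974, 2301 and 3673, and at 12 h 6081, 3702 and 10780.3. Every library at 1 h and 72 h was below every sham library, and every 12 h library was above every 6 h library. How often 72 h lay wholly below 6 h over all features, as it did for S100a9, was not counted. In order of mean, the groups were 1 h (946 ± 219), 72 h (1149 ± 349), 6 h (2983 ± 686), sham (3334 ± 1999.96) and 12 h (6855 ± 3602; SD, n = 3), and the neighbours 72 h and 6 h alone did not overlap.

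Mmp8 was lowest at 72 h and differed from S100a8 and S100a9 in where 1 h lay. Its normalised read counts were 969, 3684 and 1322 in sham and 877, 1267 and 968 at 1 h, so that sham and 1 h overlapped. At 72 h they were 399, 593 and 467, below every library of the 4 other groups. Of all features tested, 9.85% had 72 h wholly below sham and 8.86% wholly below 1 h. The share below all 4 other groups was not counted. At 6 h they were 1817, 1812 and 2386, and at 12 h 2477, 1259 and 5493. The 12 h libraries overlapped those of sham, 1 h and 6 h. In order of mean, the groups were 72 h (486 ± 98.5), 1 h (1037 ± 204), sham (1992 ± 1476), 6 h (2005 ± 329.8) and 12 h (3076 ± 2179; SD, n = 3), and the neighbours 72 h and 1 h alone did not overlap.

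Mmp9 was the least counted of the 4, and like Mmp8 it was lowest at 72 h. Its normalised read counts were 164, 956 and 271 in sham, a wide spread, and 217, 218 and 188 at 1 h, a narrow one. At 72 h they were 52.6, 173 and 99.1. At 6 h they were 395, 339.8 and 635, and at 12 h 581, 315 and 858. The highest 72 h library was above the lowest sham library and below all others. Of all features tested, 8.86% had 72 h wholly below 1 h. The shares with 72 h or 1 h wholly below 6 h were not counted. In order of mean, the groups were 72 h (108 ± 60.8), 1 h (208 ± 17.2), 6 h (457 ± 157), sham (464 ± 429.6) and 12 h (585 ± 272; SD, n = 3), with no overlap from 72 h to 1 h or from 1 h to 6 h, and overlap among 6 h, sham and 12 h.

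**Figure D1:**
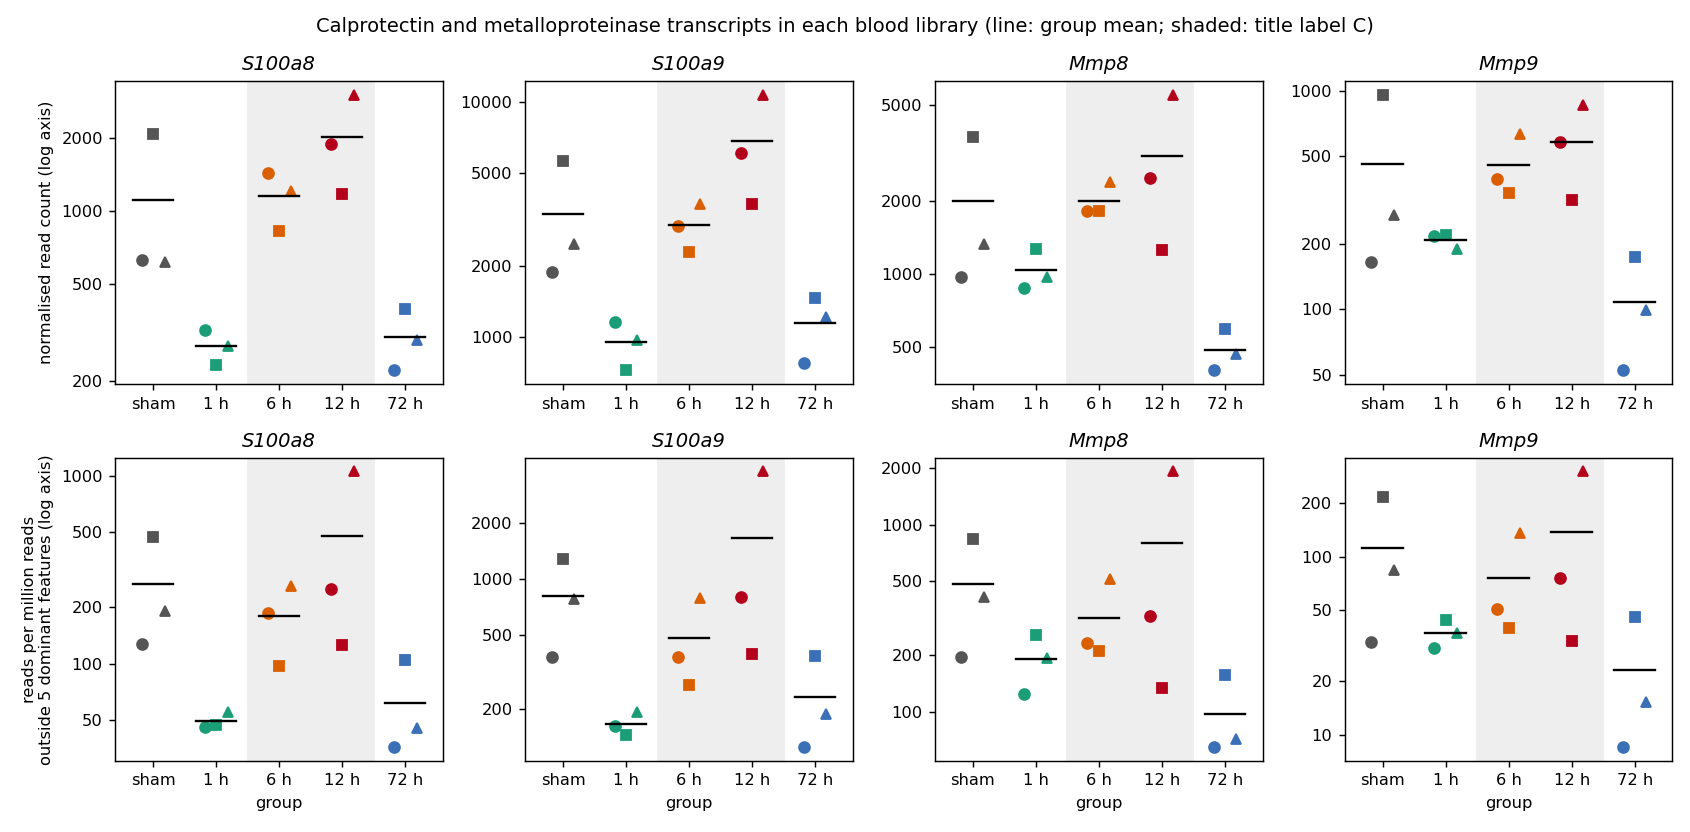
Each point is 1 library of whole blood (circle, square and triangle for replicates 1, 2 and 3), lines are group means and shading marks title label C; the upper row gives normalised read counts and the lower row reads per M reads outside the 5 dominant features, both on log axes. S100a8 lies below all sham libraries at 1 h (232 to 324) and 72 h (221 to 396), whereas Mmp8 at 1 h (877 to 1267) overlaps sham.

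Against sham at 1 h, none of the 4 genes passed the test over all features, limma on log2(value + 1) with an adjusted p threshold of 0.05, at which 0.135% of the 11117 features tested were called. S100a8 had a log2 difference of -1.76 (SE 0.471, adjusted p = 0.233), a level 3.38-fold lower, and S100a9 had -1.68 (SE 0.487, adjusted p = 0.286), a level 3.21-fold lower. By unadjusted p (0.00176 and 0.00314) they ranked 81 and 122 of 11117, and 4.89% of features were lower at an unadjusted p under 0.05. Mmp8 had -0.71 (95% interval -1.82 to 0.40, adjusted p = 0.831) and Mmp9 had -0.75 (95% interval -1.93 to 0.43, adjusted p = 0.832). The median over the 4 was -1.22, against 0.02 over all features tested. Groups without overlap in this direction, seen for S100a8 and S100a9, occurred in 11.3% of features. DESeq2 on the recovered reads called S100a8 (log2 difference -1.998, adjusted p = 0.00811) and S100a9 (-1.82, adjusted p = 0.0135), where it called 0.77% of features. edgeR, which called 0% of features, gave adjusted p = 0.242 and 0.275. With the library factor as a term, limma gave -1.58 for S100a8, -1.45 for S100a9, -0.40 for Mmp8 and -0.46 for Mmp9. None was called (limma adjusted p from 0.0901 to 0.903), and 47 of 11117 features were. Without sham replicate 2 the limma differences were -1.18 and -1.23 for S100a8 and S100a9, and those of Mmp8 and Mmp9 came to -0.14 and -0.03. Leaving out 12 h replicate 3, which is in neither group but enters the shared spread, kept the differences and lowered the limma adjusted p. It was then 0.0512 for S100a8 and 0.0558 for S100a9, with 101 of 11117 features called.

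At 72 h all 4 genes were lower than sham in estimate and none passed limma (adjusted p = 0.544 for S100a8, Mmp8 and Mmp9, and 0.576 for S100a9), where 0% of features were called (806 at an unadjusted p under 0.05). The log2 differences were -1.65 (SE 0.471) for S100a8, -1.42 (SE 0.487) for S100a9, -1.80 (SE 0.526) for Mmp8 and -1.84 (SE 0.558) for Mmp9. These correspond to levels 3.15-fold, 2.68-fold, 3.49-fold and 3.58-fold lower. Of the features tested, 3.66% were lower at an unadjusted p under 0.05 in limma, all 4 genes among them, and they ranked 53, 181, 64 and 81 by p. All 72 h libraries were below all sham libraries for S100a8, S100a9 and Mmp8, as in 9.85% of features. The median over the 4 was -1.73, against -0.05 over all features. DESeq2, which called 0.254% of features, called S100a8 (-1.87, adjusted p = 0.0415) and Mmp8 (-2.03, adjusted p = 0.0369) and not S100a9 (adjusted p = 0.124) or Mmp9 (adjusted p = 0.0988). Without sham replicate 2 the limma differences lay between -1.24 and -0.97. Leaving out 12 h replicate 3, in neither group, gave limma adjusted p of 0.136 (S100a8), 0.169 (S100a9), 0.102 (Mmp8) and 0.198 (Mmp9). In that fit 15 of 11117 features were called. All differences from sham use the same 3 sham libraries.

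From 1 h to 72 h, a comparison inside title label A&B, the estimates were near 0 for the calprotectin transcripts and below 0 for the metalloproteinases, and 0 of the 4 genes passed limma, adjusted or not (0.018% of features called after adjustment). S100a8 had a log2 difference of 0.10 (95% interval -0.90 to 1.10, adjusted p = 0.982) and S100a9 had 0.26 (95% interval -0.77 to 1.29, adjusted p = 0.930). Mmp8 had -1.09 (95% interval -2.21 to 0.02, adjusted p = 0.562) and Mmp9 had -1.09 (95% interval -2.27 to 0.09, adjusted p = 0.595). All 3 libraries at 72 h lay below all 3 at 1 h for Mmp8 and for Mmp9, as in 8.86% of features.

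At 6 h the 4 genes lay near sham: log2 differences were 0.28 for S100a8, -0.03 for S100a9, 0.24 for Mmp8 and 0.33 for Mmp9 (limma adjusted p from 0.808 to 0.986, with 0.486% of features called). These signs are not stable: on libraries set to equal totals of the reads outside the dominant features, S100a8, Mmp8 and Mmp9 were at -0.44, -0.47 and -0.38, on a scale where the median of all features lay at -0.73. At 12 h the estimates were above sham, with log2 differences of 1.02 for S100a8 (95% interval 0.02 to 2.01, adjusted p = 0.376), 1.06 for S100a9 (95% interval 0.03 to 2.10, adjusted p = 0.368), 0.62 for Mmp8 (adjusted p = 0.638) and 0.63 for Mmp9 (adjusted p = 0.658), where limma called 0.072% of features. At an unadjusted p under 0.05, S100a8 and S100a9 were among the 6.25% of features that were higher. Without 12 h replicate 3 the 4 differences at 12 h became 0.68, 0.67, 0.07 and 0.29, and without sham replicate 2 they became 1.595, 1.52, 1.19 and 1.35. On equal totals without the dominant features they were 0.50, 0.55, 0.11 and 0.11, where the median of all features lay at -0.54. With the library factor as a term they were 1.11, 1.19, 0.79 and 0.79, none called (limma adjusted p from 0.0614 to 0.442). Inside title label C, from 6 h to 12 h, S100a9 had the largest difference of the 4, 1.09 (95% interval 0.06 to 2.12, adjusted p = 0.990), and its groups did not overlap, as in 2.83% of features in this direction; its unadjusted p of 0.0393 put it among the 1.93% of features higher at under 0.05. The others were 0.74 for S100a8, 0.38 for Mmp8 and 0.29 for Mmp9 (adjusted p = 0.990 each), and 0% of features were called (423 at an unadjusted p under 0.05). Without 12 h replicate 3 these differences were 0.70 for S100a9 and 0.40 for S100a8, and Mmp8 and Mmp9 turned to -0.17 and -0.04.

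The mean of 6 h and 12 h against the mean of 1 h and 72 h was the single one of the 7 comparisons in which the genes passed limma, and all 4 were higher at 6 h and 12 h. In limma 1.84% of the 11117 features were called, and 1.14% were called higher. S100a8 was higher by a log2 difference of 2.35 (SE 0.333, adjusted p = 0.00133), a level 5.1-fold higher. S100a9 was higher by 2.07 (SE 0.344, adjusted p = 0.00395), a level 4.21-fold higher. Mmp8 was higher by 1.69 (SE 0.372, adjusted p = 0.0278), a level 3.23-fold higher, and Mmp9 by 1.77 (SE 0.395, adjusted p = 0.0299), a level 3.42-fold higher. All 6 libraries of 6 h and 12 h lay above all 6 of 1 h and 72 h for S100a8, S100a9 and Mmp9, as in 1.11% of features; for Mmp8, 1 h replicate 2 (1267) was above 12 h replicate 2 (1259). On reads per M reads outside the dominant features these groups overlapped for all 4 genes. This contrast coincides in full with a contrast of title labels within the modelled animals, and time and title label cannot be told apart. edgeR and DESeq2 also called all 4 genes, and 1.74% and 4.97% of features. With the library factor as a term the differences were 2.31, 2.02, 1.61 and 1.70, all 4 called, and 13.2% of features were then called. On libraries set to equal totals without the dominant features they were 2.14, 1.86, 1.48 and 1.57, and none was called, with 25 of 11363 features called (adjusted p = 0.0600 for S100a8, 0.122 for S100a9, 0.318 for Mmp8 and 0.336 for Mmp9). S100a8 and S100a9 were called by limma with any of the 15 libraries left out. Mmp8 and Mmp9 both missed the threshold without any 1 of 8 libraries (1 h replicates 1, 2 and 3, 6 h replicates 1 and 2, 12 h replicate 1, 72 h replicates 1 and 3), with adjusted p of up to 0.0790 and 0.0902, and Mmp9 also without 6 h replicate 3 (0.0547).

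**Figure D2:**
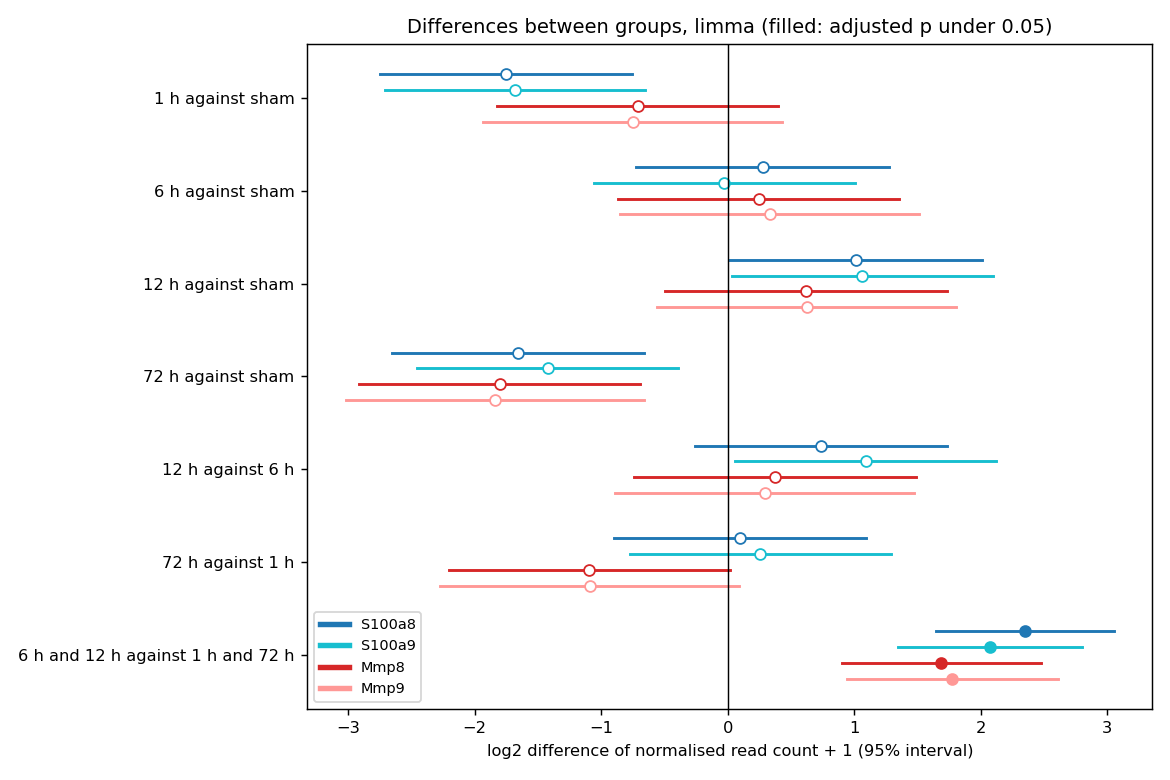
Log2 differences of normalised read count + 1 for each gene in 7 comparisons, with 95% intervals from limma over all 15 libraries; filled points have an adjusted p under 0.05. The 4 filled points, 1.69 to 2.35, all belong to 6 h and 12 h against 1 h and 72 h. At 72 h against 1 h the estimates are -1.09 each for Mmp8 and Mmp9, 0.10 for S100a8 and 0.26 for S100a9, with overlapping intervals and no filled point.

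On the scale of reads per M reads outside the dominant features, every pair of groups next to each other in mean overlapped for all 4 genes, and several separations given above were lost. S100a8 was at 49.3 ± 5.25 at 1 h and 61.9 ± 37.1 at 72 h, against 264 ± 183 in sham, 179.8 ± 80.5 at 6 h and 475 ± 503 at 12 h (SD, n = 3). The 1 h and 72 h libraries stayed below the sham libraries for S100a8, with a highest 72 h value of 104 and a lowest sham value of 128. S100a9 at 1 h (highest 192, lowest sham 382) and Mmp8 at 72 h (highest 156, lowest sham 196) also stayed below sham. For S100a9 the highest 72 h library (385) passed the lowest sham library (382) and the lowest 6 h library (269.7), and the 12 h and 6 h libraries overlapped (lowest 12 h 394, highest 6 h 785). The highest 72 h library also passed the lowest 6 h library for S100a8 (104 against 97.0) and Mmp9 (45.7 against 39.8), and the lowest 1 h library for Mmp8 (156 against 124) and Mmp9 (45.7 against 30.7). Mmp8 was at 97.6 ± 50.9 at 72 h and 793 ± 981 at 12 h, and Mmp9 at 23.2 ± 19.8 and 137 ± 143 (SD, n = 3). On this scale 12 h replicate 3 held 1052 for S100a8, 3770.3 for S100a9, 1921 for Mmp8 and 300.2 for Mmp9, the highest of the 15 libraries for each gene. That library also had the largest library factor, 2.67, which enters this scale for every feature. How many of all features were highest there was not counted, so this cannot be read as particular to the 4 genes.

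A ratio of 2 transcripts within a library does not depend on the factor the library was divided by. It is a ratio of read counts, not corrected for transcript length, so its changes between libraries can be read and its level cannot. The ratio of S100a9 to S100a8, the partners of calprotectin, stayed between 2.06 and 4.14 over the 15 libraries, while S100a8 itself spanned 221 to 3009. Its mean was lowest at 6 h (2.63 ± 0.508) and highest at 72 h (3.77 ± 0.335), with sham (3.25 ± 0.715), 12 h (3.31 ± 0.237) and 1 h (3.37 ± 0.245; SD, n = 3) between. Within title label A&B the 3 groups did not differ detectably (exact permutation p = 0.4, adjusted over 4 tests 0.8). Within title label C every 12 h library lay above every 6 h library, with the smallest p that 3 against 3 allows in a two-sided exact permutation test (p = 0.1, adjusted 0.4).

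The ratio of Mmp9 to Mmp8 was also narrow, 0.132 to 0.292 over the 15 libraries, and group means ran from 0.205 ± 0.0389 at 1 h to 0.224 ± 0.0397 at 6 h (SD, n = 3). The exact permutation p was 0.989 within title label A&B and 0.8 within title label C (adjusted 0.989 for both). The 3 libraries at 72 h, 0.132, 0.292 and 0.212, held both the lowest and the highest ratio of the series.

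Ratios between a calprotectin and a metalloproteinase transcript moved more, from 3.95-fold to 5.19-fold between the lowest and the highest library, against 2.00-fold for S100a9 to S100a8 and 2.21-fold for Mmp9 to Mmp8. These 4 cross ratios were examined after their values were seen. They are built from the same 4 counts in each library, so they are not independent and are not separate findings. S100a9 to Mmp8 was 1.95, 1.52 and 1.89 in sham, 1.32, 0.566 and 0.997 at 1 h, and 1.93, 2.46 and 2.61 at 72 h. All 1 h libraries were thus below all sham and all 72 h libraries. At 6 h it was 1.64, 1.27 and 1.54 and at 12 h 2.45, 2.94 and 1.96, again without overlap. For S100a8 to Mmp8, S100a8 to Mmp9 and S100a9 to Mmp9 the 3 libraries at 1 h were the 3 lowest of the 15 libraries. S100a8 to Mmp9 was at most 1.49 at 1 h and at least 1.90 (1.899) elsewhere. Over sham, 1 h and 72 h the exact permutation p was 0.00714 for S100a9 to Mmp8, 0.0214 for S100a9 to Mmp9, 0.0179 for S100a8 to Mmp8 and 0.025 for S100a8 to Mmp9, where the smallest p this design gives is 0.00357. Adjusted over the 12 tests of 6 ratios in 2 title labels, each was 0.075, so none passed 0.05. Between 12 h and 6 h the exact permutation p was 0.1 for both S100a9 ratios and 0.3 for both S100a8 ratios (adjusted 0.171 and 0.4).

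**Figure D3:**
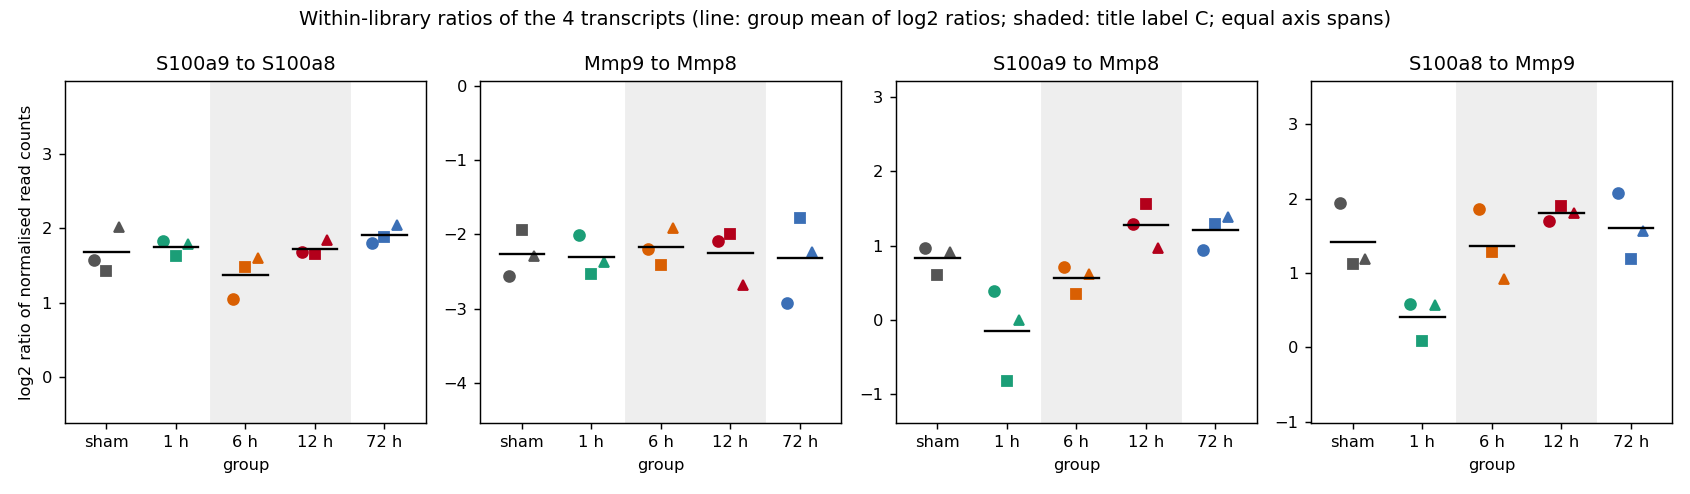
Log2 ratios of normalised read counts within each library (points, symbols by replicate) with group means of the log2 ratios (lines) and title label C shaded; the vertical axes have equal spans. S100a9 to S100a8 (2.06 to 4.14 unlogged) and Mmp9 to Mmp8 (0.132 to 0.292) are flat beside S100a9 to Mmp8 (0.566 to 2.94), which is low at 1 h.

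The 4 genes varied together across libraries, and most closely within each pair. On log2(value + 1), S100a8 and S100a9 had Pearson's r = 0.98 (permutation p = 1e-05, the smallest that 100000 resamples can give) and Spearman's rho = 0.96 (permutation p = 1e-05) over 15 libraries, and r = 0.97 without the 2 libraries farthest from the median of S100a8. Mmp8 and Mmp9 had r = 0.96 (permutation p = 1e-05), rho = 0.96 (permutation p = 1e-05) and r = 0.96 without 2 libraries. For these pairs r was 0.98 and 0.96 over the 9 libraries of title label A&B and 0.95 and 0.93 over the 6 of title label C. The 4 cross pairs had r from 0.85 to 0.88 and rho from 0.81 to 0.87 (permutation p at most 7e-05 for r and 0.00052 for rho, over 6 pairs in all). Adjusted over the 6 pairs, every p for r was at most 7e-05. Over the 15 libraries without 2 they were at 0.80 to 0.90. Within title labels the cross pairs depended on the scale. On log2(value + 1), in A&B r was 0.73 to 0.82 and rho 0.38 to 0.60, and no rho passed (adjusted exact permutation p from 0.194 to 0.312). Without the 2 libraries farthest from the median, r in A&B was 0.39 (S100a8 and Mmp8), 0.58 (S100a8 and Mmp9), 0.000275 (S100a9 and Mmp8) and 0.23 (S100a9 and Mmp9), and in C it ran from -0.10 to 0.56. On this scale each cross r within title labels was thus lower without those libraries. Leaving out extreme libraries also narrows the range and few remain, so what the relations rest on cannot be decided. On the log2 share of reads outside the dominant features, the cross pairs had r of 0.89 to 0.91 over 15 libraries, 0.82 to 0.87 in A&B and 0.94 to 0.95 in C. On that scale rho in A&B was 0.68 to 0.88, and 3 of the 4 passed (adjusted exact permutation p = 0.00461, 0.00461 and 0.0166, against 0.0503 for S100a9 and Mmp8). Without 2 libraries r on that scale was 0.37 to 0.57 in A&B and 0.84 to 0.96 in C. Too few of the 6 libraries of C then remained to say what the relation rests on. On log2(value + 1) without 2 libraries, the partners were at 0.98 (S100a8 and S100a9) and 0.86 (Mmp8 and Mmp9) in A&B and at 0.72 and 0.96 in C. The 15 values share the grouping by time and the library factors.

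**Figure D4:**
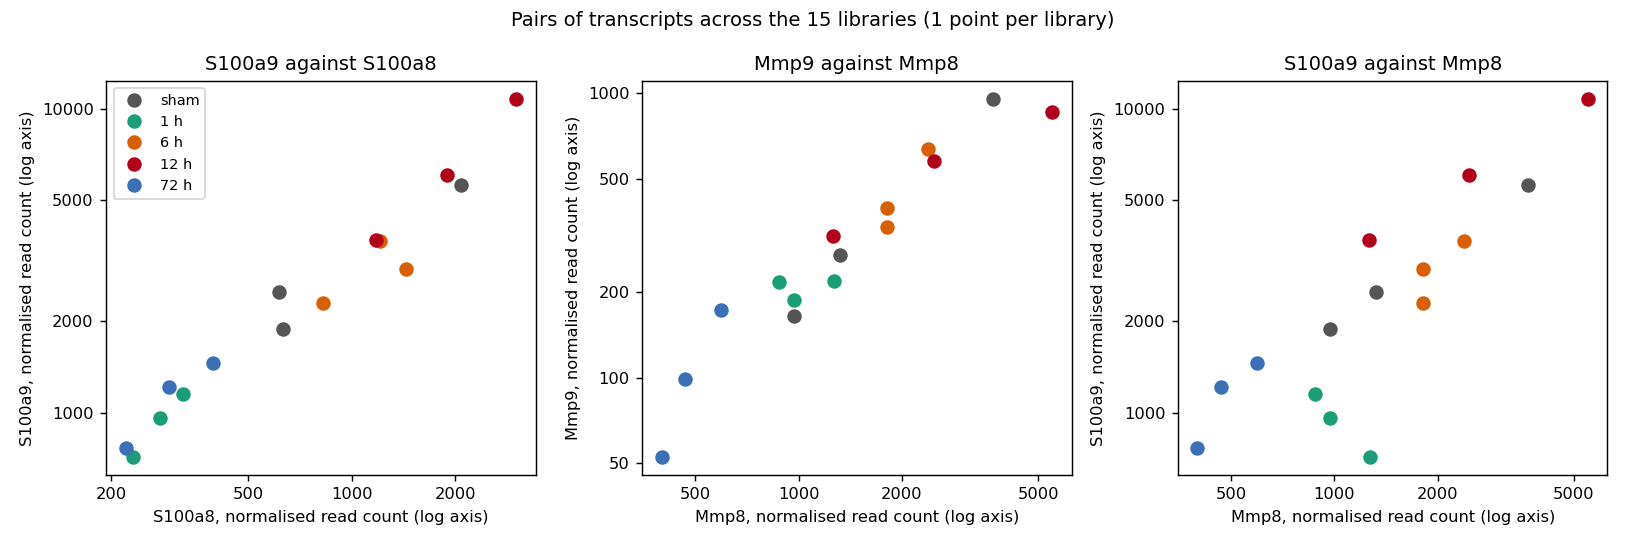
Normalised read counts of pairs of genes on log axes, 1 point per library, coloured by group. S100a9 against S100a8 (r = 0.98) and Mmp9 against Mmp8 (r = 0.96) follow narrow bands; in S100a9 against Mmp8 (r = 0.85) the 3 libraries at 1 h lie low for their Mmp8, at S100a9 to Mmp8 ratios of 0.566 to 1.32.

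Among the 3779 annotated features with a mean normalised read count of at least 50 other than the gene itself, the feature most like each gene over the 15 libraries (Pearson's r on log2(value + 1)) was its own partner: S100a9 for S100a8 and S100a8 for S100a9 (r = 0.98), Mmp9 for Mmp8 and Mmp8 for Mmp9 (r = 0.96). The next features had r of 0.95 for S100a8, 0.96 for S100a9, 0.93 for Mmp8 and 0.92 for Mmp9. Mmp9 and Mmp8 ranked 18 and 19 for S100a8 and 25 and 26 for S100a9. S100a8 and S100a9 ranked 11 and 22 for Mmp8 and 7 and 14 for Mmp9. The features next after the partners are not paired with names. They were picked by their r with the gene over these same 15 libraries, so likeness of their group means to the gene's follows from the choice. ENSRNOG00000051615 was among the 3 most like both S100a8 (r = 0.94) and S100a9 (r = 0.96), with its mean lowest at 1 h (258 ± 56.8) and 72 h (260.5 ± 51.2) and highest at 12 h (601 ± 265), around 6 h (407 ± 38.6) and sham (445 ± 144; SD, n = 3). ENSRNOG00000016573 followed Mmp9 as most like Mmp8 (r = 0.93), with its mean lowest at 72 h (186 ± 76.9) and 1 h (264 ± 23.9) and highest at 12 h (1095.5 ± 825), around sham (698 ± 238) and 6 h (762 ± 147.8; SD, n = 3).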

How the data were processed

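Whole-blood RNA (PAXgene tubes, NEBNext Ultra kit, 150 bp read pairs, per the labels' protocols) was measured in 15 libraries, 3 in each of 5 groups. The submitters' processing notes name Bowtie 0.12.2 and Rnor_6.0. How reads were counted, the strand setting and the annotation: not given in the sources used here. The deposited values are a signal: from the values, the authors divided reads per feature by 1 factor per library, and 100% of values were whole multiples of a step within 0.01 (in sham replicate 1 the step is near 1 and the recovery less well tested). Recovered depth was 29.2 to 43.3 M reads. The low-value filter kept features reaching 10 in 3 or more libraries (11117 of 17599). The test was limma 3.58.1 (trend, robust; R 4.3.3) on log2(value + 1), two-sided, all libraries in 1 fit, Benjamini-Hochberg adjustment over all features, threshold 0.05. Such fold changes understate changes of low features. edgeR 4.0.16 and DESeq2 1.42.0 on recovered reads, other scalings, filters, pseudocounts, samples and covariates were alternatives, and limma was tested on simulated data.

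Exact permutation tests of ratios rearranged libraries inside each title label only. All 4 genes are named in every comparison, with the 3 annotated features most like each, of which at most 2 IDs are printed. The genes and lists were chosen with earlier results of these data known. The reference table matched 0 of the IDs, so gene lists of related proteins and cell markers could not be run. The main tests did not pair libraries by replicate number, which entered as a block in an alternative fit only. Deviations from the group means in same-numbered libraries of 12 h and 6 h had correlations of 0.132, 0.147 and 0.448. In no other comparison of 2 groups was every such correlation above 0.1. Whether the numbers mark pairs was not tested. Circular RNA was not analysed here.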

Additional observations from a re-analysis of the deposited data

Results flagged for a closer look

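Differences from sham at 6 h and 12 h differed from those at 1 h and 72 h for the 4 genes in limma, by a test of the difference between these times itself, but not under every setting. The log2 difference of 6 h and 12 h against 1 h and 72 h was 2.35 for S100a8, 2.07 for S100a9, 1.69 for Mmp8 and 1.77 for Mmp9 (limma adjusted p = 0.00133, 0.00395, 0.0278 and 0.0299). On equal totals without the dominant features no gene passed (limma adjusted p = 0.0600, 0.122, 0.318 and 0.336), and Mmp8 and Mmp9 missed the threshold without any 1 of 8 libraries. Title label and time coincide in this contrast and cannot be told apart.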

How the results depend on the processing

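With 3 libraries a group, sham replicate 2 and 12 h replicate 3 set much of the spread, and title label limits every comparison across 6 h or 12 h and the other groups. In 6 h and 12 h against 1 h and 72 h, 4 genes passed in limma, 2 without trend and robust settings, 0 on equal totals without the dominant features and 0 on the same scale with sham replicate 2 left out (an alternative added after the data were examined), and 2 to 4 with any 1 library left out. DESeq2 called 2 genes at 1 h and 2 at 72 h, where limma called 0. With the replicate number as a block, 0 genes passed in each of the 6 comparisons of 2 groups, 12 h against 6 h included, and 4 in 6 h and 12 h against 1 h and 72 h, so the block changed no call of the 4 genes. Over all features the block fit called 12 (1 h), 123 (6 h), 15 (12 h) and 0 (72 h) against sham, 0 from 6 h to 12 h, 1 from 1 h to 72 h and 214 in 6 h and 12 h against 1 h and 72 h (without the block 15, 54, 8, 0, 0, 2 and 205).

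Over all features, 205 were called in this contrast by limma, 126 without trend and robust settings, 25 on equal totals, 22 on that scale with sham replicate 2 left out, 618 by DESeq2, 1473 with the library factor and 93 to 956 with 1 library left out (956 without 12 h replicate 3).

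Signs turned for small differences. At 6 h against sham, S100a8, Mmp8 and Mmp9 were at -0.44, -0.47 and -0.38 on equal totals and at -0.0023, -0.053 and -0.0842 in edgeR. Mmp9 was at -0.022 in DESeq2, and S100a9 was at 0.18 with the library factor as a term. With 1 library left out, 6 h against sham ran from -0.024 to 0.85 for S100a8, -0.35 to 0.43 for S100a9, -0.15 to 0.81 for Mmp8 and -0.21 to 1.06 for Mmp9. S100a8 at 72 h against 1 h ran from -0.11 to 0.31, and at 12 h against 6 h Mmp8 ran from -0.17 to 0.89 and Mmp9 from -0.041 to 0.68. The log2 ratio of Mmp9 to Mmp8 between 12 h and 6 h ran from -0.21 to 0.13. The largest difference of group means in log2 S100a8 to Mmp9 within title label A&B ran from 1.01 to 1.41 with 1 library left out. Without sham replicate 1 the adjusted exact permutation p was 0.0429, with the other ratio tests kept at their p from all libraries. This ratio was examined after its values were seen. On log2(value + 1) the cross pairs' r lost its call over the 6 libraries of title label C, with r = 0.82 for S100a8 and Mmp8, 0.80 (0.797) for S100a8 and Mmp9, 0.83 for S100a9 and Mmp8 and 0.83 (0.826) for S100a9 and Mmp9 (adjusted exact permutation p = 0.0569 each). On the log2 share all 4 passed there (r of 0.94 to 0.95, adjusted exact permutation p = 0.0111 each). The cause of these changes was not tested.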
